A study of Mus musculus with 2 samples.

Results

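The Ly49 receptors of the mouse, encoded by the Klra genes, were described in CD8 single-positive (SP) thymocytes of 2 genotypes. The members were all rows of the authors' deposited table whose gene symbol begins with Klra. This gave 6 probe sets (groups of array probes summarised to 1 value) for 5 genes, Klra3, Klra6, Klra8, Klra9 and Klra10, among 789 named genes and 1003 probe sets in that table. The table holds only probe sets that differ by at least 2-fold between the arrays, so the same contrast chose the members, and their differences are given as a description without a test. Each group was 1 Affymetrix array of RNA pooled from 2 to 4 thymuses of mice aged 8 weeks, B6 in genetic background, after magnetic sorting of CD8 SP cells. The groups were B6 wild type (B6 WT), and CIITAtgpIV-/- (a transgene of CIITA, the transactivator of MHC class II genes, combined with the absence of promoter IV of Ciita). What drives the transgene is not given in the sources used here. A single array per genotype leaves every value below without a replicate check, and this sets the precision.

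Ly49 receptors are C-type lectin-like proteins that sit as dimers on natural killer (NK) cells, on some NKT cells and on a subset of memory-phenotype CD8 T cells, where most of them read the classical MHC class I molecules of neighbouring cells. Inhibitory members carry a tyrosine motif in the cytoplasmic tail that recruits phosphatases such as SHP-1, encoded by Ptpn6. Activating members lack it and signal through the adaptor DAP12, encoded by Tyrobp. The genes lie side by side in the NK gene complex on chromosome 6, arose by duplication and are close copies of each other. Each cell usually switches on only some of them.

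Promoter windows from RefSeq (assembly GRCm38.p6, 250 bases before to 50 bases after the annotated start, minus strand, read 5′ to 3′) are shown for the 5 genes because the members were high in the same array and are copies of each other. Capitals mark the longest run of letters common to the windows of Klra6, Klra8, Klra9 and Klra3, and in Klra10 a match to the STAT motif named further on.
Klra6, chr6:130026905-130027204: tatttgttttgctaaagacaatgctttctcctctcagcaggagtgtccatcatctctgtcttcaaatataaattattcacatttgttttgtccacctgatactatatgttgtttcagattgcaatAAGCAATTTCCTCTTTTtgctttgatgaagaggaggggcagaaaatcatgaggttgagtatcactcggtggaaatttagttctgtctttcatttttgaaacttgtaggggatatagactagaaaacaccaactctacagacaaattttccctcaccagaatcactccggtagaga
Klra8, chr6:130129849-130130148: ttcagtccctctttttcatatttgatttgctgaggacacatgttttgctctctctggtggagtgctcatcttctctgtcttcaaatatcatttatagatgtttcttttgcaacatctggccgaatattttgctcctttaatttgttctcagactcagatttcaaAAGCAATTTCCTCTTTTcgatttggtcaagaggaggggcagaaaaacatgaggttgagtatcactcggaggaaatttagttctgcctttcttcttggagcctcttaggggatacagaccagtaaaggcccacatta
Klra9, chr6:130193063-130193362: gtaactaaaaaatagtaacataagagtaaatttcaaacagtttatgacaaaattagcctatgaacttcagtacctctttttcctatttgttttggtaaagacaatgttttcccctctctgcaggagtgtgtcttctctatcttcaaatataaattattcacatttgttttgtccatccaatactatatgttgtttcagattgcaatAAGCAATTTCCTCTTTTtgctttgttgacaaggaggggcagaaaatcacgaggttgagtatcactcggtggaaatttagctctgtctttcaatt
Klra10, chr6:130281879-130282178: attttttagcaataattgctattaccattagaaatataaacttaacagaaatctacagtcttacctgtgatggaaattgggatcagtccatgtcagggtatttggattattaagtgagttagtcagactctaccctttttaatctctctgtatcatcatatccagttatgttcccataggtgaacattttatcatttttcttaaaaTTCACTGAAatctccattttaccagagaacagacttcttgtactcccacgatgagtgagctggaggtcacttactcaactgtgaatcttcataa
Klra3, chr6:130337577-130337876: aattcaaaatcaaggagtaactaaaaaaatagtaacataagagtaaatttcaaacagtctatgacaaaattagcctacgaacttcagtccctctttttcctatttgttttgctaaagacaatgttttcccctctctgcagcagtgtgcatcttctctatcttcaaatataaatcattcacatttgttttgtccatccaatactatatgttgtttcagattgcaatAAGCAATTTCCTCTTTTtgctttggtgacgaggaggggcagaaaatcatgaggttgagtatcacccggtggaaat

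The common run, AAGCAATTTCCTCTTTT, is 17 bases long. It starts 125 bases before the annotated start in Klra6, 86 in Klra8, 44 in Klra9 and 25 in Klra3, so the annotated starts are placed differently relative to the shared sequence. Of 32851 RefSeq windows of the same length, 8 hold the run on either strand (0.0244%), and 7 of these 8 belong to Klra genes. Those 7 windows come from Klra3, Klra4, Klra6, Klra8, Klra9 and Klra17, so the run is not restricted to the genes with a listed probe set. It was picked after the windows had been compared and carries no test.

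Klra9 and Klra3 had the most similar windows, with 95.4% identity over 284 aligned columns. Klra6 shared 93.0% with Klra3 over 200 columns and 91.8% with Klra9 over 219. Klra8 stood further off, at 75.9% with Klra6, 76.2% with Klra9 and 76.8% with Klra3. The window of Klra10 aligned with none of the other windows over more than 34 columns. It may cover a different part of the gene, because windows follow the annotated start, and this was not tested. Its short alignments and missing common run therefore do not show that the promoter of Klra10 differs. The identities describe how alike the sequences near the annotated starts are, and say nothing about the probes, whose sequences were not used here.

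Motifs of factors known from T and NK cells were searched on both strands of these windows. The T-box motif GGTGTGA, the RUNX motif TGTGGT and the ETS motif CCGGAA matched in 0 of the 6 windows of the listed genes (Klra8 has 2 annotated starts), against 3.98%, 16.8% and 14.9% of all windows. The TCF motif CTTTGA was found among the listed genes in Klra6 only, just downstream of the common run, with a share of 16.0% among all windows. The STAT motif TTCNNNGAA, which reads the same on both strands, was found in Klra10 only among the listed genes, with a share of 8.3%. Unlisted relatives held matches too, with STAT in Klra7 and Klra2, TCF in Klra7, and T-box and RUNX in Klra1, so that 3 of all 13 Klra windows held STAT and 3 held TCF. A missing match says only that these letters are not in this window. The STAT match of Klra10 lies in a window that may not be the matching region of the other genes.

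The activating member Klra8 (Ly49H in the older nomenclature), which recognises a glycoprotein of mouse cytomegalovirus in B6 mice, had a log2 signal of 3.54 in B6 WT and 8.56 in CIITAtgpIV-/-. Its wild-type signal lay below the lower quartile of that array, 3.88, and its CIITAtgpIV-/- signal lay above the upper quartile of the other array, 7.32. The log2 difference was 5.02, or 32.4-fold, which ranked 1 among the 28560 probe sets in the range of identifiers that the authors' table covers.

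Klra3 (Ly49C), an inhibitory receptor for the class I molecule H2-Kb, had a log2 signal of 5.41 in B6 WT and 8.67 in CIITAtgpIV-/-, a difference of 3.26 or 9.55-fold. It was the 1 member whose wild-type signal was above the median of the B6 WT array, 5.20. Its difference ranked 15.

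Klra9 (Ly49I), an inhibitory receptor related to Ly49C, was represented by 2 probe sets that differed in response. The brighter had log2 signals of 3.03 in B6 WT and 7.57 in CIITAtgpIV-/-, a difference of 4.54 or 23.2-fold. The dimmer had 3.10 and 5.73, a difference of 2.64 or 6.22-fold. Both were close in the B6 WT array, 0.069 apart, and 1.83 apart in the CIITAtgpIV-/- array. No error is available for this gap.

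Klra6 (Ly49F), also of the inhibitory type, differed least. Its log2 signal was 3.89 in B6 WT and 5.56 in CIITAtgpIV-/-, a difference of 1.67 or 3.18-fold, at rank 74. It is the member nearest to the 2-fold limit of the authors' table. Klra genes under that limit have no name in the files used here, so no value just outside it can be given.

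Klra10 (Ly49J) went from a log2 signal of 3.53 in B6 WT to 8.47 in CIITAtgpIV-/-, a difference of 4.95 or 30.8-fold, at rank 2. It differed from Klra8 by 0.071 in the log2 difference, against a robust standard deviation of 0.25 (median absolute deviation scaled to match a normal distribution) for the difference over the 28560 probe sets. That yardstick holds error, mouse-to-mouse variation and the genotype together. It describes single differences over all signal levels and does not measure the error of a gap between differences.

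**Figure D1:**
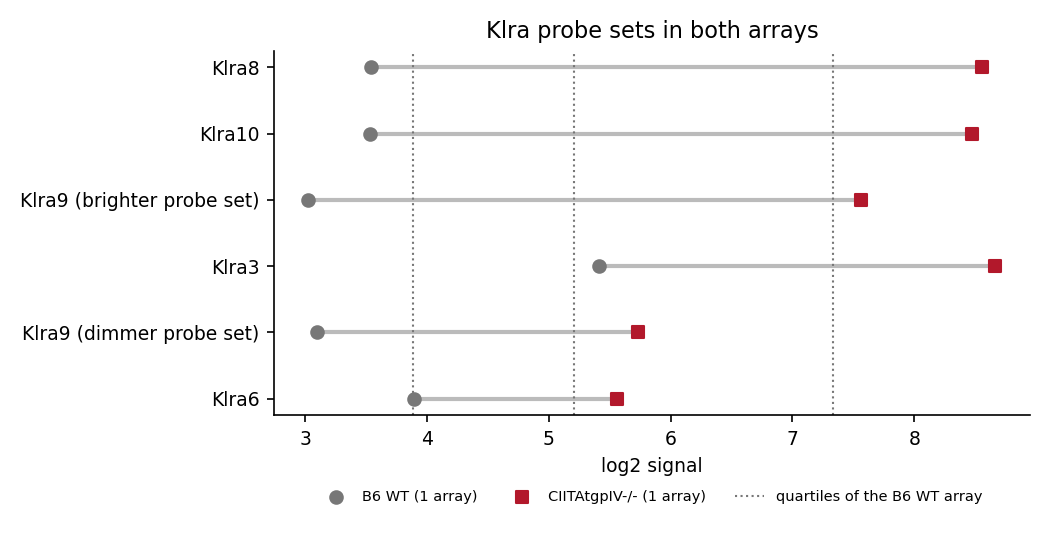
Log2 signal (horizontal axis) of the 6 Klra probe sets in the B6 WT array (grey circles) and the CIITAtgpIV-/- array (red squares), 1 array each, with dotted lines at the quartiles of the B6 WT array. All 6 are higher in CIITAtgpIV-/-, and the lowest red square, Klra6 at 5.56, lies to the right of the highest grey circle, Klra3 at 5.41.

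All 6 probe sets were higher in CIITAtgpIV-/-, and 0.977% of the probe sets within the same range of identifiers reached 2-fold in that direction. In the B6 WT array all 6 were below 5.42, the median of the higher of both signals across the value table, and in the CIITAtgpIV-/- array all 6 were above it, so a floor at that level keeps them only through the array where they are high. Because the table was selected on this contrast, nothing is read from that count. The median log2 difference of the 6 was 3.90, and the median over the range was 0.031. In the B6 WT array 4 of the 6 were below the lower quartile and 1 was above the median. In the CIITAtgpIV-/- array all 6 were above the median of 5.30 and 4 were above the upper quartile. The files used here hold no detection calls, so whether the dim wild-type signals were above background is unknown. RMA, which the submitters' processing notes name, compresses differences at low signal, so by itself it tends to understate folds from such values. Selection at 2-fold on the same contrast can act the other way, so the net direction is unknown.

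Klra probe sets were among the strongest increases. In the listed range, 8-fold or more was reached in CIITAtgpIV-/- by 19 probe sets (0.0665%), of which 4 were Klra, and 9 (0.0315%) were at least 16-fold higher, of which 3 were Klra. Of the 43 at least 4-fold higher (0.151%), 5 were Klra, and of the 279 at least 2-fold higher, 6 were. These counts rest on the contrast that selected the members and are descriptive. In RNA from a sorted population, more cells that carry a transcript and more transcript per cell cannot be told apart.

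**Figure D2:**
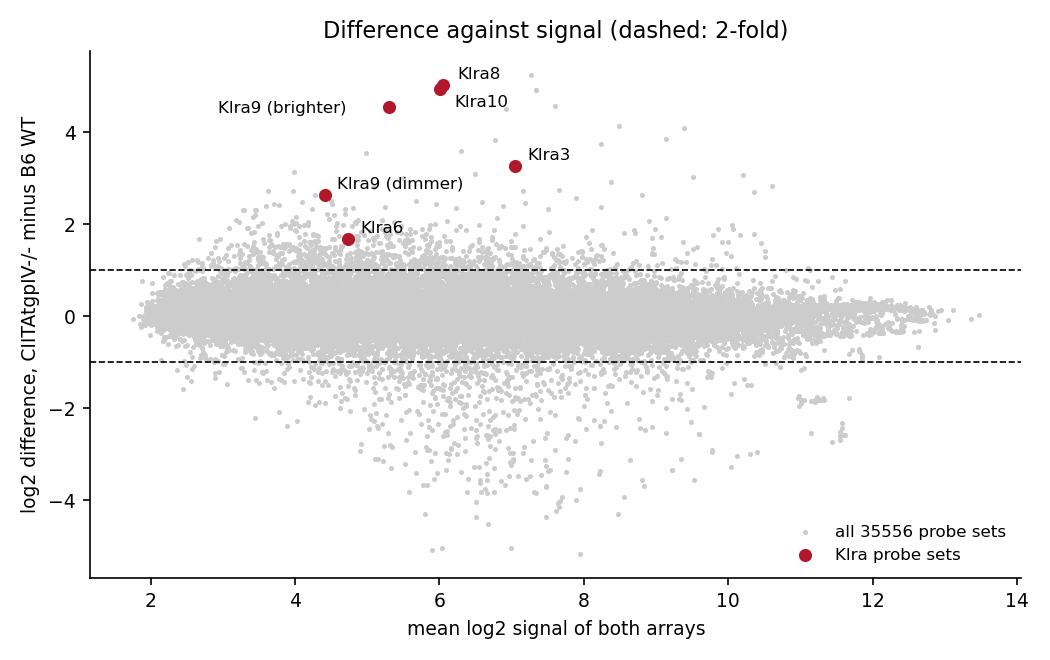
Log2 difference, CIITAtgpIV-/- minus B6 WT (vertical axis), against the mean log2 signal of both arrays (horizontal axis) for all 35556 probe sets (grey points), with the 6 Klra probe sets in red and dashed lines at 2-fold. Klra8 and Klra10 lie together at differences of 5.02 and 4.95, and Klra6 lies lowest of the 6 at 1.67.

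In the authors' table all 6 probe sets lie on the minus strand of chromosome 6 (coordinates as that table states them, build not given). Klra6 is placed at 129963051 to 129976978, Klra8 at 129994052 to 130112631, the brighter Klra9 probe set at 130128587 to 130143130 and Klra10 at 130198508 to 130231958. The dimmer Klra9 probe set is placed at 130233611 to 130233747, a span of 137 bases between Klra10 and Klra3, outside the span of the brighter one. Klra3 is placed at 130273307 to 130287644. The spans of Klra6 and Klra3, 13928 and 14338 bases, equal the lengths of these genes in RefSeq. The spans of Klra8 and Klra10, 118580 and 33451 bases, exceed the RefSeq gene lengths of 14673 and 14454 bases.

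The probe sets were not equally tied to the gene they are named for. For Klra6, Klra10 and Klra3, all 20, 40 and 10 probes were assigned to the named mRNA. For Klra8 it was 10 of 20 probes. For the brighter Klra9 probe set it was 63 of 69, and for the dimmer one 16 of 25, with an assignment score of 84 where the other 5 have 100. Among the rows of the whole table with such an entry, 59.9% had every probe assigned. The table marks cross-hybridisation as false for all 6.

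The protein cross-references of the same rows overlapped between genes. The brighter Klra9 probe set, Klra10 and Klra3 all point to 1 transcript, which RefSeq assigns to Klra3. The dimmer Klra9 probe set points to a transcript that RefSeq assigns to Klra5 (Ly49E), a gene without a listed row of its own. The value of each row is therefore given under the table's symbol, while the share of signal that came from each Klra gene is uncertain.

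**Figure D3:**
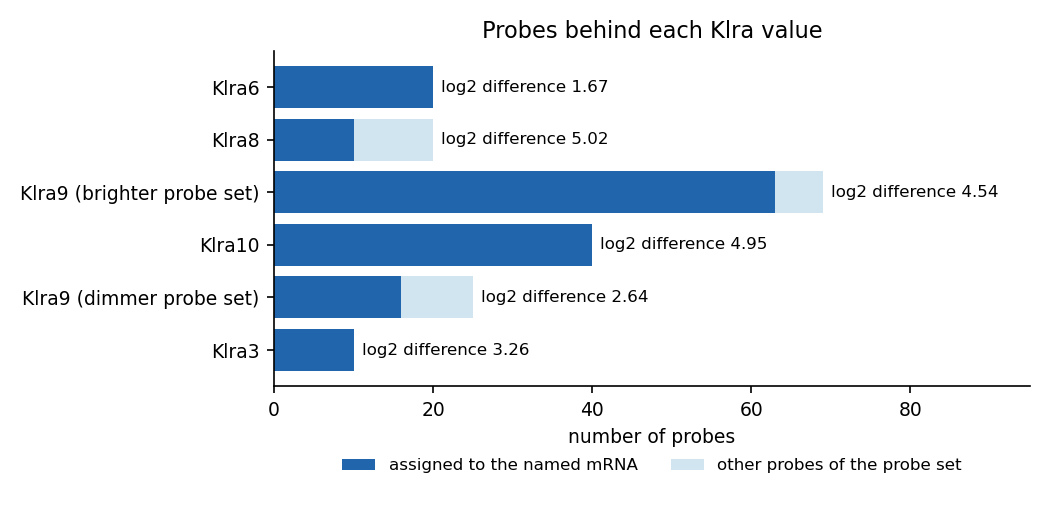
Number of probes (horizontal axis) of each Klra probe set, in the order of their position, split into probes assigned to the named mRNA (dark blue) and other probes of the probe set (light blue), with the log2 difference written beside each bar. Klra8 has 10 of 20 probes assigned and a difference of 5.02, while Klra3 has all 10 assigned and a difference of 3.26.

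RefSeq lists 11 protein-coding Klra genes and 3 Klra pseudogenes on the main chromosome 6 sequence, and 5 of the 11 had a listed probe set. These 5 are the members, selected on this contrast, so nothing is read from their number. Over the range, 0.977% of probe sets were at least 2-fold higher. The other 6 protein-coding Klra genes were Klra17 (Ly49Q), Klra5, Klra4 (Ly49D, an activating receptor), Klra7 (Ly49G), Klra1 (Ly49A) and Klra2 (Ly49B). Their levels are not reported here, because the files used here name no probe set under 2-fold. In RefSeq order Klra4 lies between Klra6 and Klra8, and Klra7 between Klra9 and Klra10. No row is named for either.

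The Klra probe sets and 1 other formed a run in the order of the probe set identifiers. The value table has 7 probe sets from the identifier of Klra6 to that of Klra3. All 7 were listed and higher in CIITAtgpIV-/-, with a median log2 difference of 3.26. For the 6 Klra probe sets this was fixed beforehand, because the members were selected on this contrast. Over the range, 0.977% of probe sets were at least 2-fold higher. The one that is not named Klra is LOC640965, described in the authors' table as similar to a killer cell lectin-like receptor of subfamily A. It is placed at 130036327 to 130036430 on chromosome 6, inside the span given for Klra8, and 6 of its 9 probes are assigned to the named transcript. Its log2 signal was 2.42 in B6 WT and 5.55 in CIITAtgpIV-/-, a difference of 3.14 or 8.79-fold.

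The ends of the run were set by the listed Klra rows. Of the 20 probe sets before it and the 20 after it in identifier order, 0 of 40 differed by 2-fold in either direction, with differences from -0.50 to 0.76 before and from -0.81 to 0.52 after. Over the whole range the shares past 2-fold were 0.977% higher and 2.54% lower, which gives 1.40 of 40, so a count of 0 is near the overall share. In both arrays, 34 of the 40 were below 5.42. The nearest before, probe set 10548455, had log2 signals of 3.15 in B6 WT and 3.91 in CIITAtgpIV-/-, a difference of 0.76, the largest of the 20. The nearest after, probe set 10548541, had 2.14 and 2.43, a difference of 0.29. The files used here do not name these flanking probe sets. Among the 31 listed probe sets on the minus strand of chromosome 6, identifiers and positions rose together in 30 of 30 steps.

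**Figure D4:**
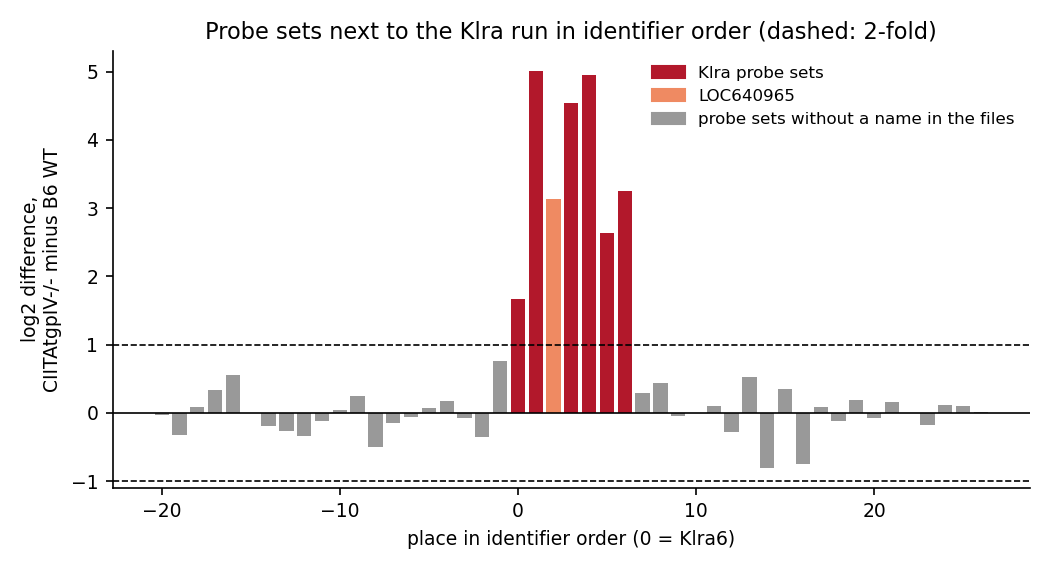
Log2 difference, CIITAtgpIV-/- minus B6 WT (vertical axis), for consecutive probe sets in identifier order (horizontal axis, 0 is Klra6), with Klra probe sets in red, LOC640965 in orange, 20 unnamed probe sets on either side in grey and dashed lines at 2-fold. The 7 probe sets of the run lie between 1.67 and 5.02, and the grey ones between -0.81 and 0.76.

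From Klrb1a to Klra2, a stretch of the NK gene complex, RefSeq has 48 protein-coding genes, of which 7 were listed, 5 of them Klra. Outside Klra it was 2 of 37, or 5.41%, while 3.51% of the probe sets in the range differed by at least 2-fold in either direction. Both were lower in CIITAtgpIV-/-. Clec12a, an inhibitory lectin of myeloid cells, had log2 signals of 5.49 in B6 WT and 3.81 in CIITAtgpIV-/-, a difference of -1.68. Gabarapl1, an autophagy protein, had 6.10 and 4.78, a difference of -1.32. Of the 14 other Klr genes in this stretch 0 were listed, and of its 13 Clec genes 1. At the overall share of 3.51%, fewer than 1 gene would be listed in groups of this size.

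Lists of genes around Ly49 function were compared with the table by count. All lists were chosen with earlier results of these data known, so their counts are a description. At the overall share of 3.51%, each of the next 4 lists would have fewer than 1 listed member, so a count of 0 does not set them apart. None of 17 NK receptors outside Klra was listed (Klrk1, Klrd1, Ncr1 and Klrb1c among them), and none of 12 defining NK cell markers, among them Gzma, Fcer1g and Nkg7. None of 14 signalling partners was listed, including the adaptor genes Tyrobp and Hcst and the phosphatase gene Ptpn6, and none of 10 genes for classical class I ligands and their assembly, including H2-K1, H2-D1 and B2m. For an unlisted gene the size of the difference is unknown here, and it was under 2-fold if the gene has a probe set in the range that is not among the 71 listed ones without a symbol. Whether NK cells contributed to the Klra values was not tested.

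Class Ib genes, relatives of classical class I, had 3 listed members of 15, all 3 higher in CIITAtgpIV-/-. Over the range, 3.51% of probe sets passed 2-fold in either direction and 0.977% were at least 2-fold higher. H2-Q6 had log2 signals of 9.28 in B6 WT and 11.0 in CIITAtgpIV-/-, a difference of 1.76. H2-Q8 differed by 1.37. H2-Q10 differed by 1.15, from 4.74 in B6 WT, below 5.42, to 5.89 in CIITAtgpIV-/-. The list's median was 1.37, where the median over all 789 listed genes was -1.28 and 27.5% of them were higher. The H2-Q genes are near-identical copies, so which of them gave the signal is uncertain.

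Regulators linked to Ly49 expression and to memory-like CD8 cells had 5 listed members of 16, with 4 higher and 1 lower in CIITAtgpIV-/-. Over the range 3.51% of probe sets passed 2-fold in either direction, and 27.5% of listed genes were higher. Because this list was chosen with earlier results of these data known, no enrichment is read from the count. The median difference of the 5, 1.42, covers only members already past 2-fold, like the -1.28 over all listed genes. Il2rb, a beta chain through which both IL-2 and IL-15 signal, had log2 signals of 8.90 in B6 WT and 10.7 in CIITAtgpIV-/-, a difference of 1.77. Il15ra, the chain that binds and presents IL-15, had 5.93 and 7.22, a difference of 1.28 or 2.44-fold. Both cytokine receptor chains were thus higher in the array where the Klra probe sets were higher. Unlike the Klra values, Il2rb was already above the upper quartile of the B6 WT array, 7.33. Eomes, a T-box factor of memory CD8 and NK cells, differed by 3.86, and Il4ra, which binds IL-4, by 1.42. Ikzf2, the zinc finger protein Helios, was lower, with 8.31 in B6 WT and 6.07 in CIITAtgpIV-/-. The 11 unlisted genes included Tbx21, Tcf7, Runx3, Id2 and Nfil3.

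Of 8 surface markers of memory-like CD8 cells, 5 were listed, 4 higher and 1 lower, with a median difference of 1.77 over those 5. The same shares of 3.51% and 27.5% stand beside this count. Here too the list was chosen with earlier results of these data known, so no enrichment is read from it. Cxcr3, which guides effector and memory T cells along chemokine gradients, had log2 signals of 7.35 in B6 WT and 11.4 in CIITAtgpIV-/-, a difference of 4.08. Ccr2, another chemokine receptor, differed by 3.59, and the adhesion receptor Cd44 by 1.64. Itga4, the alpha chain of the integrin VLA-4, was lower, with 9.64 in B6 WT and 7.24 in CIITAtgpIV-/-. Il2rb belongs to this list as well.

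**Figure D5:**
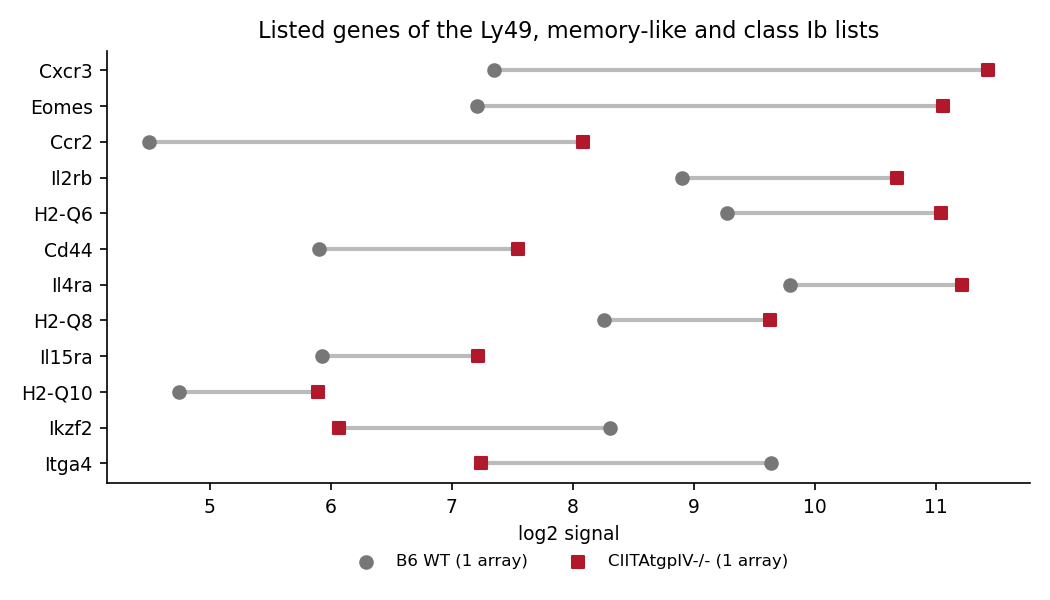
Log2 signal (horizontal axis) of the 12 listed genes of the class Ib, Ly49 regulator and memory-like surface lists in the B6 WT array (grey circles) and the CIITAtgpIV-/- array (red squares), 1 array each, ordered by difference. Cxcr3 has the widest gap, 4.08, and Ikzf2 and Itga4 are the 2 genes with the red square on the left.

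Markers of other cell types were looked for in the same table. Over the range, 3.51% of probe sets passed 2-fold in either direction, and 2.54% were at least 2-fold lower. A list this short without a listed member is therefore near the share over all probe sets. None of 7 T cell genes was listed (Cd8a, Cd8b1, Cd3d, Cd3e, Cd3g, Cd4 and Trac), so the labelled cell type could not be checked against their levels. Of 7 markers of NKT and gamma delta T cells, Cxcr6 was listed, with log2 signals of 8.82 in B6 WT and 10.3 in CIITAtgpIV-/-, while Zbtb16 and Il4 were not. Of all listed genes 72.5% were lower, and so were all 3 listed of 6 myeloid markers, from signals between 4.77 and 6.37 in B6 WT to between 3.44 and 3.94 in CIITAtgpIV-/-. Itgax, 1 of these 3, was below 5.42 in both arrays. All 3 listed of 6 red cell markers were lower too, from between 8.38 and 8.57 to between 4.73 and 5.53. None of 5 B cell markers was listed. The part of these differences in cell makeup in the Klra values was not tested, and sorting and genotype differ together here and cannot be told apart.

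The genes whose pair of signals was most like that of each Klra probe set were found by the distance between both log2 signals, over the 2 arrays, among the named listed genes. Signals of different probe sets also depend on how well their probes bind, so the distance is a description. For Klra8 and for Klra10 the nearest was Ccr2, at 1.07 and 1.04, followed by Samd3 and H2-Eb2, a class II beta chain. For Klra3 the nearest was Aqp9, a channel for water and small solutes, at 0.086, with signals of 5.43 and 8.75, followed by Plek, the platelet and leukocyte protein pleckstrin, at 0.42, and H2-Eb2 at 0.56. The brighter Klra9 probe set had none nearer than Osbpl6, an oxysterol-binding protein relative, at 1.12, followed by Cxcr5 and Map2. The dimmer one had 5430427O19Rik at 0.45, LOC640965 at 0.70 and Akr1c18 at 0.84. Klra6 was nearest to Akr1c18, a steroid dehydrogenase, at 0.16, to Cysltr2, a leukotriene receptor, at 0.30 and to Rhoq, a small GTPase, at 0.32.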

How the data were processed

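Gene expression was measured on 2 Affymetrix arrays, 1 per genotype, with 2 to 4 thymuses pooled for each. The values deposited by the authors are log2 signals of 35556 probe sets. RMA and GCOS are named in the submitters' processing notes, and Expression Console 1.1 and affy 2.9.2 (for R) in the series' design, which states limits of 10% on the false discovery rate and 2 on the fold change. The authors' deposited table of 1003 probe sets gives the log2 ratio, CIITAtgpIV-/- minus B6 WT, with other columns of probe numbers and annotation scores per the file headers, and holds no false discovery rate. Its 2 signal columns were not used. The sources used here name no array type, annotation release or build.

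Differences were taken on the log2 scale from the value table. The identifiers of the authors' table span 28560 probe sets, which served as background, and 6996 lie outside. Shares and counts past 2-fold in the results use no floor on signal. The counts in the closing part on processing also require the higher signal to reach 5.42, the median of the higher of both signals, unless stated. A gene of a list took the values of its brightest listed probe set, and list members were matched by symbol, RefSeq accession or older symbol. Named genes were every Klra row, the 3 nearest genes of each, the listed genes of the NK gene complex and all listed list members. The members and lists were chosen with earlier results of these data known. All 5 genes had RefSeq promoter windows, which were aligned locally with Biopython 1.88 (match 2, mismatch -3, gap opening -5, gap extension -2). Alternatives were median centring, quantile normalization, loess (statsmodels 0.14.6, fraction 0.3), other thresholds and floors, the mean over probe sets and the authors' ratio. Protein motifs were planned but not analysed here, and 1 gene of the list of memory-like surface markers is not reported here.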

Additional observations from a re-analysis of the deposited data

How the results depend on the processing

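Median centring, quantile normalization and loess left each Klra probe set higher by over 2-fold, and the 18 alternative differences moved by at most 0.093 on the log2 scale. The authors' deposited log2 ratio gave the same 6 differences. It equals the difference of the deposited signals in every listed row, so it is no separate check. Members of a table selected at 2-fold have little room to change direction, so the other normalizations are a weak check. As the mean over both probe sets, the difference of the gene Klra9 was 3.59 in place of 4.54. The count of 6 Klra probe sets held at 3-fold and with no floor, was 5 at 4-fold and was 4 with the floor at the 75th percentile, 7.50. Over the listed range, 254 probe sets were higher and 683 lower past the floor. At 3-fold these counts were 85 and 341, at 4-fold 43 and 222, and with the floor at the 75th percentile 160 and 422. No paired analysis was possible because a genotype is 1 array, and for the same reason no sample could be left out. Signal over background limits the folds of the dim wild-type values, for which no detection call was used here.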
